A study of Mus musculus with 12 samples.

Results

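The 51 genes described here are those of 22317 in the count table whose symbols name a bone morphogenetic protein (Bmp), a transforming growth factor-beta (Tgfb), a growth and differentiation factor (Gdf), an activin subunit (Inhb), a latent TGF-beta binding protein (Ltbp), a receptor (Bmpr, Tgfbr, Acvr), a Smad, or the antagonists noggin (Nog), gremlin (Grem), chordin (Chrd) and follistatin (Fst). The symbols alone set which genes belong, and the family was chosen with earlier results of these data known. Poly(A) RNA of 12 mouse libraries was sequenced from both ends, in 4 groups of 3. All mice were male BALB/c animals of 8 weeks with an ischemic injury by photothrombosis, in which a laser lights the injected dye Rose Bengal and closes the vessels of a small spot. By the labels alone, SB2 and SB4 are brain cortex on day 2 and day 4 after the skull was injured. BS2 and BS6 are by label interparietal bone of the skull on day 2 and day 6 after the brain was injured. No uninjured group and no group of the injured tissue itself was analysed here, so each comparison is between these 4 groups. The study counts 3 biological replicates a condition, and the labels do not say whether 1 animal gave several libraries.

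Ligands of this family are secreted as dimers and bring type I and type II receptor kinases together on the cell surface. TGF-beta and activin signals run through Smad2 and Smad3 and BMP signals through Smad1, Smad5 and Smad9, each with Smad4, while Smad6 and Smad7 hold the pathway back. BMPs were named for their power to induce bone, and bone matrix is a large store of latent TGF-beta that osteoclasts release. In the brain the family acts on astrocytes, neural stem cells and the vessel wall.

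The transcripts in 2 of the 4 groups went against the tissue on the label. Summed over 8 neuron markers, the level was 11120 to 12040 CPM (counts scaled to library size with TMM factors, the trimmed mean of M-values) in SB4 and 10700 to 11080 CPM in BS2, the group labelled bone, against 63.8 to 104.7 CPM in SB2, the group labelled brain, and 70.49 to 136.4 CPM in BS6. Summed over the 7 measured osteoblast and osteocyte markers, it was 36590 to 41690 CPM in SB2 and 19100 to 79190 CPM in BS6, against 8.644 to 12.31 CPM in SB4 and 10.97 to 19.4 CPM in BS2, and the bone matrix gene Ibsp was at 3 counts or fewer in every library of SB4 and BS2. The groups are therefore called by their labels only, and wherever a day is compared with a day under 1 label, the day and the kind of tissue transcript cannot be told apart. Oligodendrocyte markers went with the neuron markers. Astrocyte markers did so by less, at 1246 to 1444 CPM in SB4 and 1345 to 1369 CPM in BS2. In SB2 they had 705.2 to 847.1 CPM and in BS6 370.2 to 696.5 CPM. Microglia markers went the other way, at 151.9 to 159.3 CPM in SB4 and 154.5 to 170.4 CPM in BS2. In SB2 microglia markers had 420.9 to 450.3 CPM and in BS6 229.5 to 469.2 CPM. BS6 replicate 2 stood apart from the other BS6 libraries, with 15370 CPM summed over 4 marrow myeloid markers against 923.3 to 2328 CPM, and with 3247 CPM over 5 fibroblast and periosteum markers against 17380 to 26640 CPM. Total counts were 14126082 to 18972654 a library, and in these bulk samples fewer cells of a type and less RNA per cell cannot be told apart.

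The 51 genes together took 0.378 to 0.386% of all counts in SB2 and 0.305 to 0.403% in BS6, but 0.131 to 0.138% in SB4 and 0.134 to 0.139% in BS2. The lowest value of SB2 and BS6, in BS6 replicate 2, was above the highest of SB4 and BS2. In the map of all libraries the same division runs through most rows, and a few receptor genes and Chrd go the other way.

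**Figure D1:**
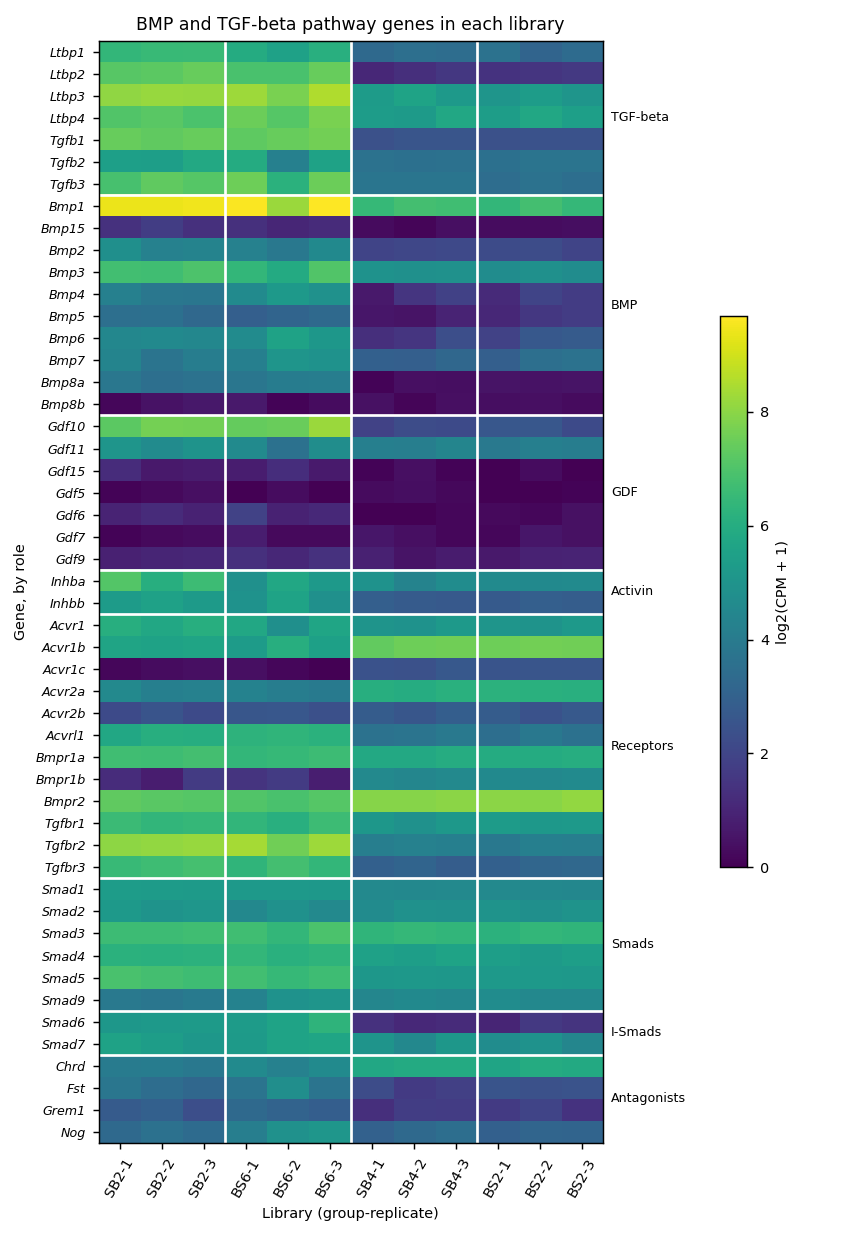
Level of the genes (all of the 51 but 1), as log2(CPM + 1) by colour, in the 12 libraries (columns, group and replicate) with genes ordered by role (rows). Most ligands and latency proteins are bright in the SB2 and BS6 columns and dark in the SB4 and BS2 columns, while Acvr1b, Acvr1c, Acvr2a, Bmpr1b and Chrd show the opposite, and the Smads other than Smad5 and Smad6 change little in colour.

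Counts were compared by the quasi-likelihood test of edgeR, with p-values adjusted over all tested genes by the method of Benjamini and Hochberg. Genes with a log2 fold change beyond 1 in either direction, and with an adjusted p below 0.05, are the called ones. From SB2 to SB4, 48 of the 51 genes could be tested, of which 29 were called lower and 5 higher, with a median log2 fold change of -1.80. Over all 17293 genes tested, 28.6% were called lower, 27.8% higher and thus 56.4% in all, with a median of -0.01. From BS2 to BS6 the count was turned round: of 47 tested genes 28 were called higher and 6 lower, with a median of 1.83, where 29% of all genes were called higher, 26.5% lower and 55.5% in all, with a median of 0.02. Of the 47 genes tested in both, 27 were called lower in SB4 and higher in BS6, 5 were called higher in SB4 and lower in BS6, 3 were called in 1 comparison and 12 in neither. Of the 16953 genes of the whole table tested in both, 25.2% were called lower in SB4 and higher in BS6, 24% higher in SB4 and lower in BS6, 12.7% in 1 comparison and 38% in neither. These 2 comparisons share no library. Without BS6 replicate 2, 30 of 47 tested genes were called higher and 5 lower in BS6 than in BS2. In that fit 5100 of all 17686 genes tested were called higher and 4808 lower.

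**Figure D2:**
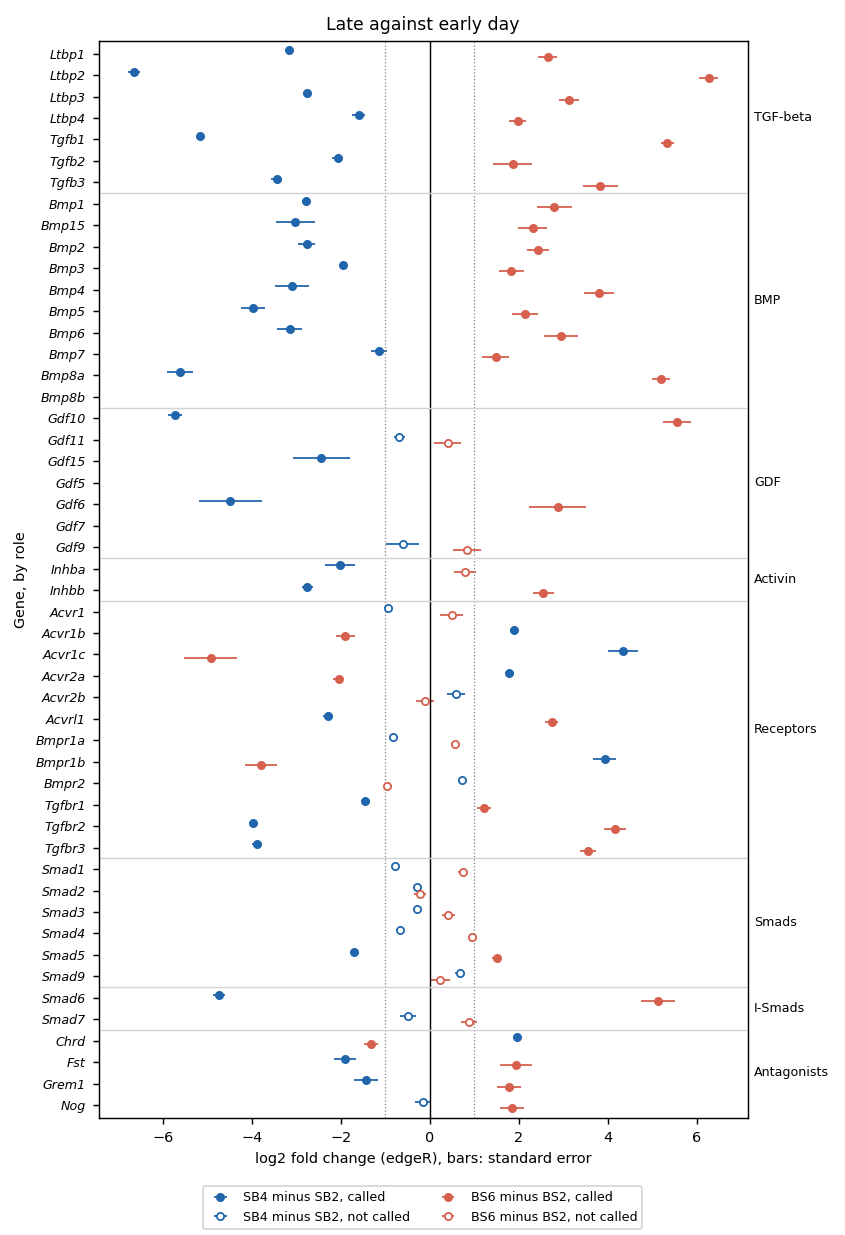
Log2 fold change (points) with its standard error (bars) of the same genes from SB2 to SB4 (blue) and from BS2 to BS6 (red), by role, with filled points for called genes and dotted lines at the fold threshold of 1. The TGF-beta and BMP rows lie on opposite sides of 0 in the 2 colours, from -6.64 and 6.27 for the matrix protein Ltbp2 to -1.14 and 1.48 for Bmp7, and most Smad rows have open points near 0.

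For each direction from SB2 to SB4, the promoters of the 2 most changed genes with a single RefSeq entry and at least 20 CPM are shown to give the sequence from which these opposed transcripts start. They are read from RefSeq on GRCm38.p6, the mm10 build, 5′ to 3′ on the strand of the gene, ending at the start site or where the first GENCODE M21 exon begins; capitals mark the motif GGCGCC. They lie at chr12:84876533-84876741 on the minus strand for Ltbp2, chr14:33923337-33923586 on the plus strand for Gdf10, chr15:101173822-101174066 on the plus strand for Acvr1b and chr16:20732877-20733126 on the plus strand for Chrd.
Ltbp2: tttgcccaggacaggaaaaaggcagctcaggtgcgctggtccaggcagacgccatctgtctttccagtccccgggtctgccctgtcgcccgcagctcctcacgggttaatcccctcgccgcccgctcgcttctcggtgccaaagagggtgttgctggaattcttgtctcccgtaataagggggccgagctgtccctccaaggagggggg
Gdf10: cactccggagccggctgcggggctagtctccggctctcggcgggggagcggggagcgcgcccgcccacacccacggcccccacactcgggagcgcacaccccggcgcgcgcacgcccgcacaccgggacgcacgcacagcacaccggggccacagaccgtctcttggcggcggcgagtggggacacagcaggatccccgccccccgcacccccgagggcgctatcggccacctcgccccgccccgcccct
Acvr1b: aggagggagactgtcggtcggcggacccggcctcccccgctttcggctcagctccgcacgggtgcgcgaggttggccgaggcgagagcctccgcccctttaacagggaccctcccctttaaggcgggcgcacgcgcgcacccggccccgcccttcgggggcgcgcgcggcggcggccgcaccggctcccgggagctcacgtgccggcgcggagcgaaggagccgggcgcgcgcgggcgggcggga
Chrd: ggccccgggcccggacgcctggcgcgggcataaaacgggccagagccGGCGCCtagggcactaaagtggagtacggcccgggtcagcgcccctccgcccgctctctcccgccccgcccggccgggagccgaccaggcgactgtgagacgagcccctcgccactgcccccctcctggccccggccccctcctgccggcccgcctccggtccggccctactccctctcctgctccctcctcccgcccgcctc
Ltbp2 and Gdf10 were high in SB2 and BS6, and Acvr1b and Chrd in SB4 and BS2. Promoter entries were found for 35 of the 51 genes, 45 entries in all, and the 250 bases before the start site held a median of 65.2% G and C, against 52.4% over all 32851 promoters in the RefSeq set. GGCGCC, a GC-rich element that Smads can bind, was in 9 of the 45, or 20%, against 9.59% of all promoters. It was in 5 of the 24 entries of genes lower in SB4 and higher in BS6, and in 1 of the 8 entries of genes that went the other way. Entries are not separate genes, and Ltbp4 gave more than 1 of the 5. TGTGGT, the core that Runx factors bind, was found on either strand in 2 of the 45 entries, or 4.44%, against 14% of all promoters. GTCTAGAC, a Smad palindrome, was in 0 of the 45 and in 0.167% of all promoters. These shares were not set against promoters of like G and C content, so no excess or lack of a motif is read from them. GGCGCC and GTCTAGAC read the same on both strands, none of the 3 motifs contains another, and a match is a description of the sequence only.

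All 7 TGF-beta ligands and latency proteins were called lower in SB4 than in SB2 and higher in BS6 than in BS2, against 28.6% and 29% of all genes. Both calls together were made for 25.2% of all genes tested in both. Tgfb1 (chr7:25687002-25705077, plus strand), the ligand most abundant in bone matrix and made by many blood cells, had 173, 160 and 171 CPM in SB2 and 154, 171 and 197 CPM in BS6, but 4.26, 4.89 and 4.85 CPM in SB4 and 4.31, 4.42 and 4.43 CPM in BS2. Its 2 pairs of groups lay far apart with no overlap, and within each pair the libraries overlapped. Its log2 fold change was -5.16 with a standard error (SE) of 0.09 from SB2 to SB4 (adjusted p = 1.4e-12) and 5.34 with an SE of 0.14 from BS2 to BS6 (adjusted p = 2.75e-06). Ltbp2 (chr12:84783212-84876532, minus strand), a matrix protein of elastic fibres that does not bind latent TGF-beta itself, had the largest log2 fold changes among the 51 genes in both comparisons, from 155 ± 15.5 CPM (SD, n = 3) in SB2 to 1.52 ± 0.41 CPM in SB4 and from 1.83 ± 0.193 CPM in BS2 to 138 ± 30 CPM in BS6. The log2 fold changes of Ltbp2 were -6.64 (SE 0.14) and 6.27 (SE 0.21). Of its exon bases 9.34% lie opposite a gene on the other strand, and whether the counting used strand is not given in the sources used here.

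Ltbp3 and Ltbp4 hold latent TGF-beta in the matrix. Ltbp3 had 270, 288 and 284 CPM in SB2 and 308, 214 and 366 CPM in BS6, against 37 to 48 CPM in SB4 and 31.7 to 40.1 CPM in BS2. Ltbp4 had 131, 147 and 123 CPM in SB2 and 182, 138 and 210 CPM in BS6, against 37.9 to 54.3 CPM in SB4 and 40.8 to 54.5 CPM in BS2. Neither gene overlapped between the 2 pairs of groups, and the fall of Ltbp4 from SB2 to SB4, by 1.60 on the log2 scale (SE 0.14), was the smallest among these 7 genes. Ltbp1, the main binding protein of latent TGF-beta in many tissues, was at 84.9 to 94.1 CPM in SB2 and 45.3 to 68.7 CPM in BS6, and at 7.75 to 11.4 CPM in SB4 and BS2 together.

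The TGF-beta ligands differed in how evenly they held in BS6. Tgfb3 had 187, 71.3 and 182 CPM there and Tgfb2 61.2, 17.8 and 46.6 CPM, so that replicate 2 was lowest for both, while its Tgfb1 level of 171 CPM lay between those of the other libraries. This replicate is the one with low fibroblast and high marrow markers. Its osteoblast and osteocyte markers were also lowest in BS6, at 19100 CPM against 55580 and 79190 CPM. The same held for osteoclast markers, at 1488 CPM against 2705 and 3228 CPM. The part of these cells in the 3 values was not tested. Per kilobase of exons, Tgfb3 at 40.6 ± 6.34 CPM (SD, n = 3) and Tgfb1 at 33.3 ± 1.33 CPM were both above Tgfb2 at 8.17 ± 1.42 CPM in SB2. In SB4 the order per kilobase was Tgfb3 at 3.72 ± 0.032 CPM, Tgfb2 at 1.94 ± 0.0657 CPM and Tgfb1 at 0.925 ± 0.0704 CPM, with no overlap of mean and SD between them. Thus the level of Tgfb1 per length was above that of Tgfb2 in SB2 and below it in SB4.

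**Figure D3:**
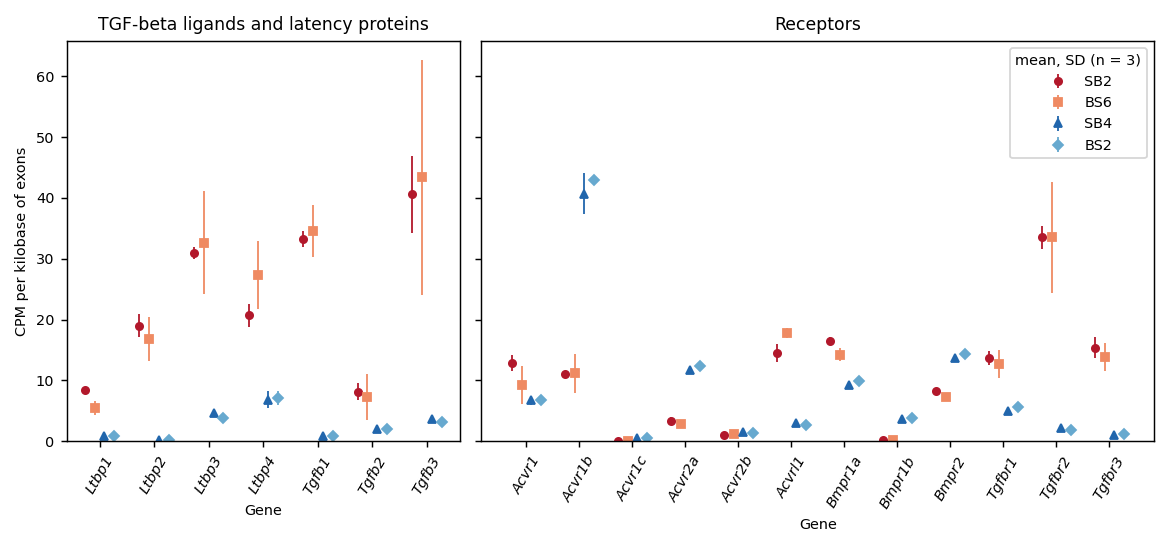
Mean level per kilobase of exons (CPM per kilobase) with SD over 3 libraries of the TGF-beta ligands and latency proteins (left) and of the receptors (right) in SB2 (circles), BS6 (squares), SB4 (triangles) and BS2 (diamonds). Tgfb3, Tgfb1, Ltbp3 and Tgfbr2 stand highest in SB2 and BS6, and Acvr1b, at 40.7 and 42.9, stands highest in SB4 and BS2.

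Of the 10 BMP symbols in the table, 9 could be tested, and all 9 were called lower in SB4 than in SB2 and higher in BS6 than in BS2, where 28.6% of all genes were called lower and 29% higher. Of all genes tested in both comparisons, 25.2% had both calls. Bmp1 (chr14:70474558-70520234, minus strand), which despite its name is not a ligand but a protease that cuts procollagen and chordin, had the highest level per kilobase of the 51 genes in SB2, at 78.1 ± 2.29 CPM (SD, n = 3). Its level was 681, 681 and 716 CPM in SB2 and 785, 295 and 819 CPM in BS6, against 88.8 to 109 CPM in SB4 and 84.1 to 108 CPM in BS2. Even its lowest library, BS6 replicate 2, was above every SB4 and BS2 library. Bmp3, a BMP of bone matrix that restrains bone formation, had 105 to 124 CPM in SB2 and 83, 59.1 and 130 CPM in BS6. In SB4 and BS2 Bmp3 was at 24.8 to 29.4 CPM, and per kilobase in SB4 its level of 3.87 ± 0.089 CPM was second to that of Bmp1, at 11.3 ± 1.17 CPM, among the BMP symbols.

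Bmp6, a ligand of bone and of iron balance, had 21.4 to 23.4 CPM in SB2 and 24.3, 46.7 and 33.7 CPM in BS6, against 1.49, 1.85 and 3.95 CPM in SB4 and 2.71, 5.38 and 5.88 CPM in BS2. Its log2 fold changes were -3.15 (SE 0.28) and 2.95 (SE 0.38). Bmp4, a ligand of bone and of blood vessels, had 17.8, 13.4 and 12.8 CPM in SB2 and 24.0, 35.6 and 28.7 CPM in BS6. In SB4 it had 0.567, 1.79 and 2.62 CPM and in BS2 1.24, 2.95 and 2.32 CPM. No library overlapped between the pairs, and the log2 fold changes were -3.09 (SE 0.38) and 3.80 (SE 0.34). Bmp2, a strong inducer of osteoblasts, was at 18 to 27.4 CPM in SB2, 13.7 to 23.2 CPM in BS6 and 2.91 to 3.78 CPM in SB4 and BS2. Bmp7, which acts in kidney, bone and fat, changed least, with log2 fold changes of -1.14 (SE 0.18) and 1.48 (SE 0.31).

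Bmp8a was at 10.7 to 16.2 CPM in SB2 and BS6 and at 0.0709 to 0.436 CPM in SB4 and BS2, while its close copy Bmp8b had 1 to 9 counts in every library and was not tested. Of the 50-base words in the exons of Bmp8a, 8.74% also occur in another gene, most often Bmp8b, so that the split of reads between them is uncertain. Bmp15, known as an oocyte factor, had 17 to 36 counts a library in SB2 and BS6 and 2 to 6 in SB4 and BS2. Bmp5, a ligand of skeletal development, was at 6.59 to 11 CPM in SB2 and BS6 and 0.435 to 2.32 CPM in SB4 and BS2, but 46.7% of its exon bases lie opposite the exons of Gm26903.

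Of the 7 Gdf genes in the table, 5 were tested from SB2 to SB4 and 3 of them called lower, and from BS2 to BS6 2 of 4 were called higher, where 28.6% of all genes were called lower and 29% higher. Gdf10 (chr14:33923587-33937983, plus strand), also known as Bmp3b and close to Bmp3 in sequence, had 149, 203 and 194 CPM in SB2 and 166, 177 and 297 CPM in BS6, against 2.77, 3.81 and 3.56 CPM in SB4 and 5.13, 5.19 and 3.49 CPM in BS2. No library of SB2 or BS6 came near those of SB4 or BS2, and the log2 fold changes were -5.73 (SE 0.16, adjusted p = 6.29e-10) and 5.56 (SE 0.32, adjusted p = 1.94e-05). Gdf11, a ligand close to myostatin, had 24.4 to 32.4 CPM in SB2 and 16.6 to 20.3 CPM in SB4, a log2 fold change of -0.68 (SE 0.13) under the fold threshold, and 11.1, 23.6 and 26.0 CPM in BS6 overlapped 14.0 to 16.9 CPM in BS2.

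Gdf6, a ligand of joints and skull sutures, had 15 to 43 counts a library in SB2 and BS6, 2 to 5 in BS2 and at most 2 in SB4. Against the limit of 3 counts a library in SB4, Gdf6 was at least 5.8-fold lower in SB4 than in SB2. Gdf9, an oocyte factor, was at 0.435 to 1.59 CPM in all libraries and not called in either comparison, with log2 fold changes of -0.61 (SE 0.37) and 0.84 (SE 0.31). Gdf15, a stress-induced ligand, was called lower in SB4 than in SB2 at 9 to 24 counts against 1 to 6 counts a library. Gdf5 and Gdf7 had at most 11 counts in any library and were not tested.

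The activin subunits Inhba and Inhbb, whose dimers form activins A and B, were both called lower in SB4 than in SB2, as were 28.6% of all genes. Inhba had 135, 65.3 and 99.3 CPM in SB2, 29.8, 19.2 and 25.0 CPM in SB4, 23.6, 22.9 and 23.8 CPM in BS2 and 28.0, 55.0 and 36.0 CPM in BS6. SB2 was above all the other groups with no overlap. From BS2 to BS6 its log2 fold change of 0.80 (SE 0.25) stayed under the fold threshold. Inhbb was at 37.9 to 45.4 CPM in SB2, 28.0 to 47.5 CPM in BS6 and 5.46 to 6.67 CPM in SB4 and BS2, with log2 fold changes of -2.75 (SE 0.12) and 2.55 (SE 0.24).

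**Figure D4:**
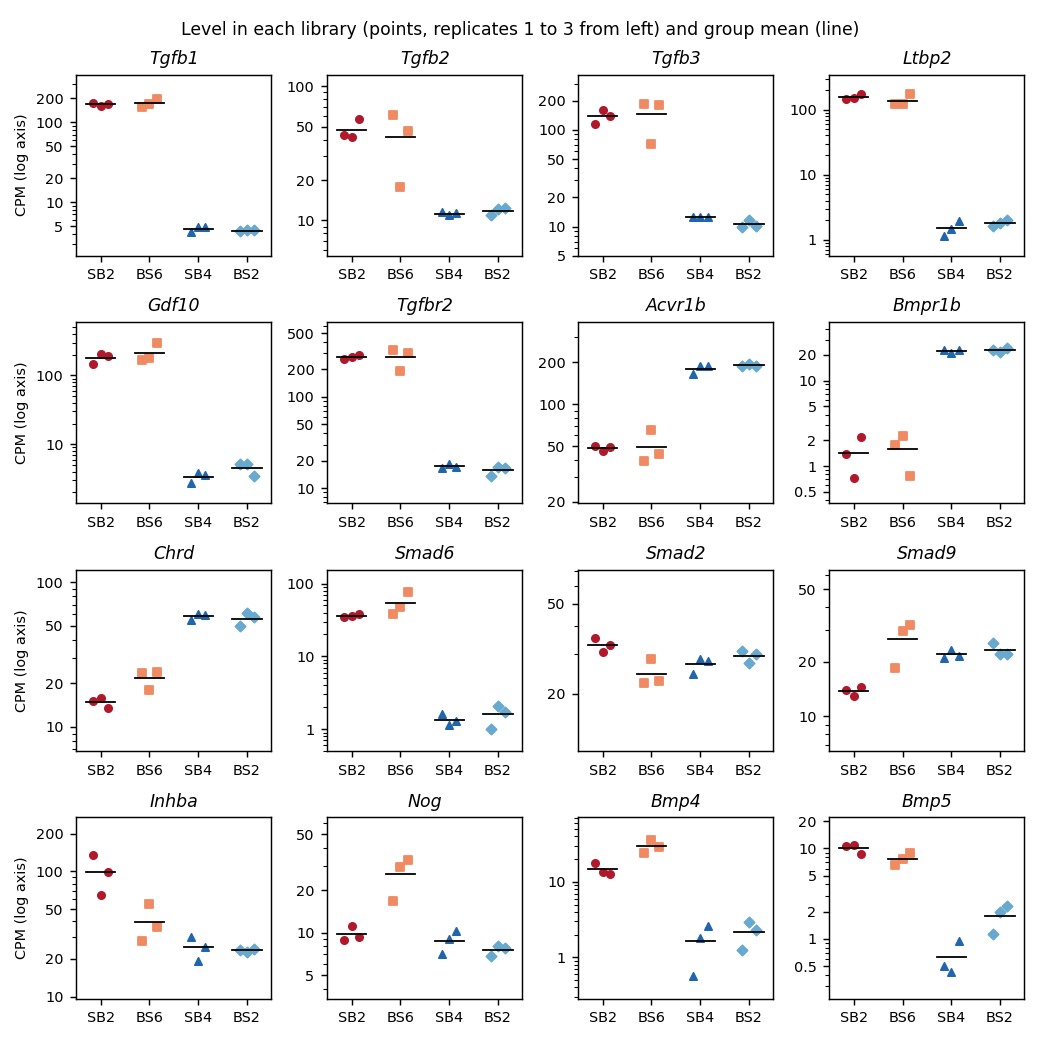
CPM of 16 genes on a log axis in each library of SB2, BS6, SB4 and BS2 (points, replicates from left to right) with the group mean (line). Tgfb1, Ltbp2, Gdf10, Tgfbr2 and Smad6 lie high in SB2 and BS6, Acvr1b, Bmpr1b and Chrd lie high in SB4 and BS2, Smad2 stays between 22.2 and 35.4 CPM, and in Inhba, Nog and Bmp4 the points of SB2 and BS6 do not overlap.

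Of 12 receptors, 4 were called lower in SB4 than in SB2 (Acvrl1, Tgfbr1, Tgfbr2 and Tgfbr3), 4 higher (Acvr1b, Acvr1c, Acvr2a and Bmpr1b) and 4 were not called (Acvr1, Acvr2b, Bmpr1a and Bmpr2), and each of the 8 called ones was called with the opposite sign from BS2 to BS6. These shares were near those over all genes, of which 28.6% were called lower and 27.8% higher from SB2 to SB4. Tgfbr2 (chr9:116084293-116175360, minus strand), the type II receptor of TGF-beta, had 258, 276 and 289 CPM in SB2 and 329, 190 and 305 CPM in BS6, against 16.8, 18.3 and 17.0 CPM in SB4 and 13.6, 17.1 and 16.5 CPM in BS2. The groups did not overlap across the 2 pairs, and the log2 fold changes were -3.98 (SE 0.08, adjusted p = 2.76e-12) and 4.16 (SE 0.25, adjusted p = 2e-05). Its partner Tgfbr1, the type I receptor, changed less, by -1.45 (SE 0.10) and 1.22 (SE 0.15), and Tgfbr3, the co-receptor betaglycan, by -3.88 (SE 0.11) and 3.55 (SE 0.18). Acvrl1, a type I receptor of endothelium, was at 54.7 to 79.6 CPM in SB2 and BS6 and 10.2 to 13.9 CPM in SB4 and BS2. Over the same libraries the sum of 4 endothelial markers was 541.1 to 753.8 CPM in SB2 and BS6 and 42.23 to 73.25 CPM in SB4 and BS2; its part in the Acvrl1 values was not tested.

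Acvr1b (chr15:101174067-101213684, plus strand), the type I receptor of activin, ran the other way, with 163, 187 and 189 CPM in SB4 and 187, 193 and 189 CPM in BS2 against 49.8, 46.5 and 49.3 CPM in SB2 and 38.9, 65.7 and 43.9 CPM in BS6. All 6 libraries of SB4 and BS2 were above all 6 of SB2 and BS6, and the log2 fold changes were 1.89 (SE 0.08, adjusted p = 6.83e-10) and -1.90 (SE 0.21, adjusted p = 0.000257). Acvr2a, a type II receptor of activin, had 62.8 to 72.8 CPM in SB4 and BS2 and 14.8 to 22.6 CPM in SB2 and BS6. Bmpr1b, a type I BMP receptor known from cartilage and neural precursors, had 20.7 to 24.0 CPM in SB4 and BS2 and 0.733 to 2.23 CPM in SB2 and BS6, with log2 fold changes of 3.93 (SE 0.26) and -3.80 (SE 0.36). Acvr1c, the type I receptor known as ALK7, had 63 to 97 counts a library in SB4 and BS2 and at most 5 in SB2 and BS6.

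Bmpr2, the main type II BMP receptor, had 240, 240 and 254 CPM in SB4 and 253, 247 and 274 CPM in BS2 against 159, 146 and 140 CPM in SB2 and 132, 120 and 138 CPM in BS6. SB4 and BS2 did not overlap SB2 and BS6, but the log2 fold changes of 0.72 (SE 0.07) and -0.95 (SE 0.10) were under the fold threshold. Bmpr1a, a type I BMP receptor found in most tissues, had 100 to 109 CPM in SB2 and 84.2 to 97.4 CPM in BS6 against 56.1 to 62.9 CPM in SB4 and 60.6 to 64.9 CPM in BS2, with log2 fold changes of -0.83 (SE 0.07) and 0.57 (SE 0.09). Acvr1, a type I BMP receptor, had 54.9 to 66.0 CPM in SB2 and 29.6 to 36.4 CPM in SB4, but in BS6 its 54.8, 27.4 and 51.2 CPM overlapped the 30 to 35.4 CPM of BS2, replicate 2 being the low one. Acvr2b, the other type II activin receptor, was at 3.47 to 6.41 CPM in all libraries, with log2 fold changes of 0.59 (SE 0.20) and -0.11 (SE 0.20).

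Per kilobase of exons, the receptor with the highest level was Tgfbr2 in SB2, at 33.5 ± 1.88 CPM (SD, n = 3), and Acvr1b in SB4, at 40.7 ± 3.36 CPM. Bmpr1a followed Tgfbr2 in SB2 at 16.5 ± 0.699 CPM, with Tgfbr3 at 15.4 ± 1.73 CPM and Acvrl1 at 14.5 ± 1.49 CPM within each other's SD. Bmpr2 at 13.6 ± 0.433 CPM was next after Acvr1b in SB4.

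Of the Smads that carry the signal, all 6 had an adjusted p under 0.05 from SB2 to SB4, as had 83.3% of all genes, and 1 passed the fold threshold too, where 56.4% of all genes were called. Of Smad1, Smad2, Smad3, Smad4, Smad5 and Smad9, Smad5 alone was called, at 102 to 120 CPM in SB2 and 88.4 to 106 CPM in BS6 against 33.5 to 34.4 CPM in SB4 and 34.4 to 37.2 CPM in BS2. Its log2 fold changes were -1.70 (SE 0.08, adjusted p = 2.06e-09) and 1.51 (SE 0.10, adjusted p = 3.26e-05), in the direction of the BMP ligands. Smad1, its close relative, had 37.9 to 39.5 CPM in SB2 and 34.4 to 36.5 CPM in BS6 against 22.0 to 22.8 CPM in SB4 and 21.1 to 22.5 CPM in BS2, which did not overlap between the 2 pairs but stayed under the fold threshold at -0.77 (SE 0.08) and 0.74 (SE 0.10). Smad4, the partner of all the others, lay at 69.0 to 84.1 CPM in SB2 and BS6 and 38.2 to 47.6 CPM in SB4 and BS2, with log2 fold changes of -0.67 (SE 0.08) and 0.96 (SE 0.11).

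Smad3, of the TGF-beta and activin branch, had 97.5 to 105 CPM in SB2 and 80.2 to 87.0 CPM in SB4, and its BS6 libraries at 104, 84.7 and 123 CPM overlapped those of BS2 at 73.4, 84.8 and 80.6 CPM. Smad2, of the same branch, had 35.4, 30.6 and 32.7 CPM in SB2, 24.3, 28.6 and 27.9 CPM in SB4, 30.8, 27.2 and 30.1 CPM in BS2 and 22.2, 28.6 and 22.8 CPM in BS6. Its groups overlapped from BS2 to BS6, and the log2 fold change was negative in both comparisons, at -0.28 (SE 0.10) and -0.22 (SE 0.14). Smad9, of the BMP branch, was positive in both, at 0.67 (SE 0.10) and 0.24 (SE 0.22), with 12.9 to 14.5 CPM in SB2, 21.0 to 23.3 CPM in SB4, 22.1 to 25.2 CPM in BS2 and 18.4, 29.4 and 31.9 CPM in BS6. Smad2 and Smad9 were the genes of the 47 tested in both comparisons with the same sign in each, and none of these 4 values passed the fold threshold.

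Of the 2 inhibitory Smads, 1 was called in both comparisons, lower in SB4 and higher in BS6. So were 25.2% of all genes tested in both. Smad6 (chr9:63953076-64022059, minus strand), which mainly blocks BMP signals, had 34.3, 35.3 and 38.0 CPM in SB2 and 38.4, 47.7 and 77.2 CPM in BS6 against 1.63, 1.14 and 1.28 CPM in SB4 and 1.00, 2.05 and 1.74 CPM in BS2. No library overlapped between the pairs, and the log2 fold changes were -4.74 (SE 0.14, adjusted p = 7.15e-11) and 5.13 (SE 0.39, adjusted p = 5.32e-05). Smad7, which blocks TGF-beta and BMP signals, had 34.3 to 46.9 CPM in SB2, 21.8 to 33.5 CPM in SB4, 21.0 to 29.7 CPM in BS2 and 37.7 to 50.1 CPM in BS6, and its log2 fold changes of -0.49 (SE 0.18) and 0.88 (SE 0.18), in the same directions as those of Smad6, were under the fold threshold.

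Secreted antagonists had no common direction. Chrd (chr16:20733127-20742384, plus strand), which binds BMPs and is cut by Bmp1, had 54.8, 60.1 and 59.5 CPM in SB4 and 49.7, 61.0 and 57.2 CPM in BS2 against 15.2, 15.9 and 13.6 CPM in SB2 and 23.7, 18.1 and 23.8 CPM in BS6. Its log2 fold changes were 1.97 (SE 0.09, adjusted p = 2.07e-09) and -1.32 (SE 0.15, adjusted p = 0.000244). Fst, which binds activins, was opposite, with 8.36 to 13.0 CPM in SB2 and 12.1, 26.5 and 12.2 CPM in BS6 against 2.12 to 3.76 CPM in SB4 and 4.35 to 4.72 CPM in BS2. Grem1, a BMP antagonist of stromal cells, followed Fst at -1.43 (SE 0.27) and 1.78 (SE 0.27), from 3.97 to 8.93 CPM in SB2 and BS6 to 1.49 to 2.95 CPM in SB4 and BS2.

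Nog, which blocks Bmp2 and Bmp4 among others, had 8.89, 11.1 and 9.34 CPM in SB2, 7.02, 8.97 and 10.2 CPM in SB4, 6.78, 8 and 7.77 CPM in BS2 and 16.8, 29.1 and 33.0 CPM in BS6. BS6 was above all the other groups, and Nog was called from BS2 to BS6 at 1.84 (SE 0.27, adjusted p = 0.000846) but not from SB2 to SB4.

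The difference between the change from SB2 to SB4 and the change from BS2 to BS6 was tested over all 12 libraries. It was called for 44 of 48 genes, 7 with the higher and 37 with the lower value for SB2 to SB4, where 35.8% of all genes were called higher, 37.8% lower and 73.6% in all. The 4 that were not called were Acvr2b, Smad2, Smad3 and Smad9. For Tgfb1 this difference was -10.52 (SE 0.16) on the log2 scale and for Bmpr1b 7.72 (SE 0.50).

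To compare groups with alike tissue transcripts, BS6 was set against SB2 and BS2 against SB4. In the first pair 47 of the 51 genes could be tested, 2 were called higher in BS6 and 0 lower, where 1.11% of all genes were called higher, 0.741% lower and 1.86% in all. The median log2 fold change of the 47 was 0.06. An unadjusted p under 0.05 was found for 12 of them. The share of all genes under that limit is not given here, so no excess of the family is read from the 12. By DESeq2 2 of 51 were called higher and 1 lower, where of all 22174 genes 752 were called higher and 320 lower. In the second pair 0 of 44 tested genes were called, where 0.0614% of all genes were called higher, 0.086% lower and 0.147% in all. An unadjusted p under 0.05 was found for 7 of the 44, again with no share of all genes beside it. DESeq2 called 0 of 51 here, and of all 22215 genes it called 17 higher and 29 lower. The 44 values had a median of 0.08 and ran from -0.24 to 1.51. By the labels these tests compare different days, injured sites and tissues at once, which cannot be told apart. Whether the labels of SB2 and BS2 were exchanged was not tested; under exchanged labels each pair would hold 1 tissue and 1 injured site and differ by day.

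**Figure D5:**
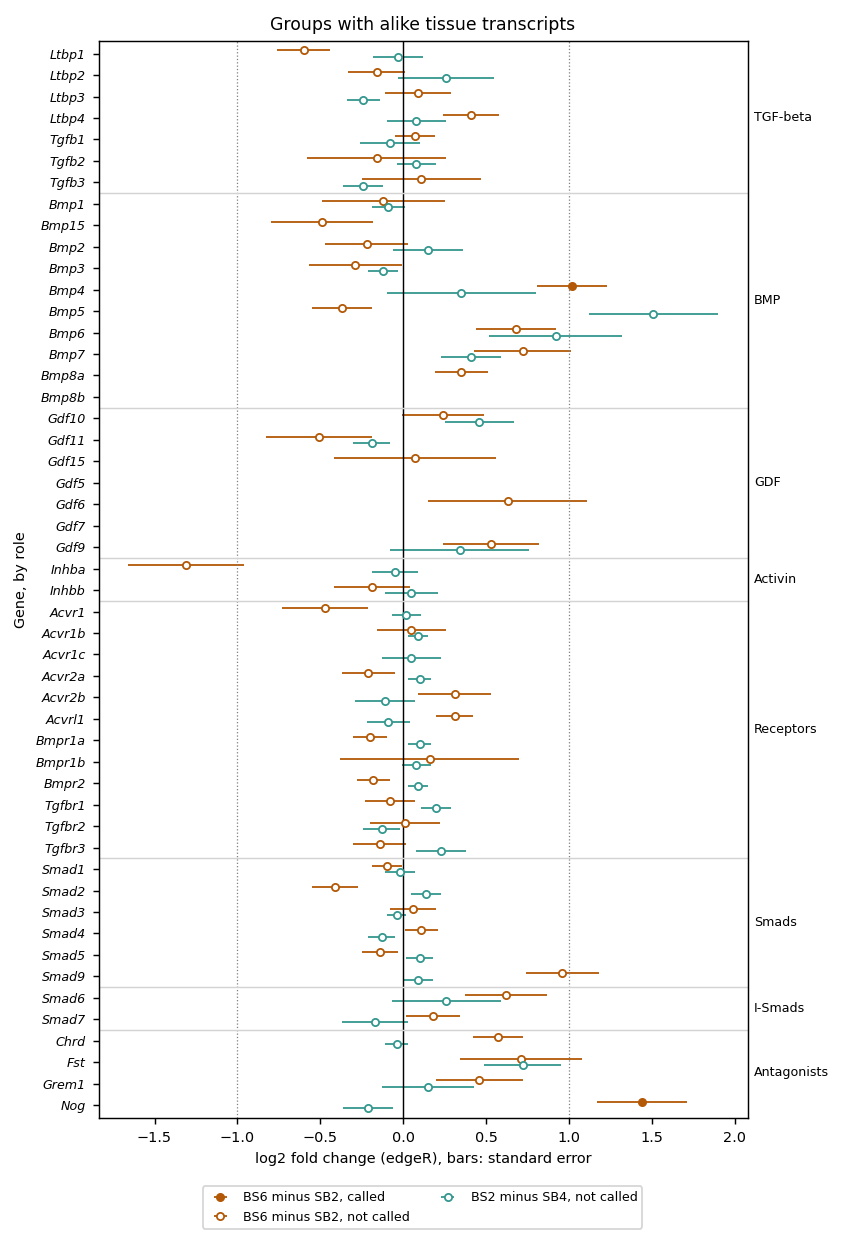
Log2 fold change (points) with its standard error (bars) of the same genes from SB2 to BS6 (brown) and from SB4 to BS2 (teal), by role, with filled points for called genes and dotted lines at the fold threshold of 1. Nog at 1.44 and Bmp4 at 1.02 are filled, Inhba at -1.31 and Bmp5 at 1.51 pass the fold threshold but are open, and the other points lie within the dotted lines.

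Nog and Bmp4 were the 2 genes called higher in BS6 than in SB2. For Nog (chr11:89300638-89302332, minus strand) the lowest BS6 library, at 16.8 CPM, was above the highest SB2 library, at 11.1 CPM, and the log2 fold change was 1.44 (SE 0.27, adjusted p = 0.0399). For Bmp4 (chr14:46383520-46390669, minus strand) the lowest BS6 library had 24.0 CPM and the highest SB2 library 17.8 CPM, with a log2 fold change of 1.02 (SE 0.21, adjusted p = 0.0447). Both calls were near the threshold. Bmp4 was not called when any of the 6 libraries was left out, with log2 fold changes of 0.85 to 1.18. Nog was not called without BS6 replicate 3 or without any of the 3 SB2 libraries, with log2 fold changes of 1.25 to 1.54 in these fits. With the replicate number as a block neither was called, at an adjusted p of 0.121 for Bmp4 and 0.1 for Nog. In that fit 0 of all 16329 genes tested were called. The same 0 held when any 1 of the SB2 libraries was left out, so the losses in these fits are not particular to the 2 genes.

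Other genes of the family were chosen for mention in these pairs after their values were seen. Inhba was lower in every BS6 library, at 28.0 to 55.0 CPM, than in every SB2 library, at 65.3 to 135 CPM, with a log2 fold change of -1.31 (SE 0.35, adjusted p = 0.0753). It was called by DESeq2 (adjusted p = 0.00397), in the fit of all 12 libraries (adjusted p = 0.0126) and without BS6 replicate 2 (adjusted p = 0.0489). Smad9 was at 12.9 to 14.5 CPM in SB2 and 18.4 to 31.9 CPM in BS6, a log2 fold change of 0.96 (SE 0.22, adjusted p = 0.056). Bmp5 had 1.12, 1.99 and 2.32 CPM in BS2 and 0.497, 0.435 and 0.947 CPM in SB4, which did not overlap, with a log2 fold change of 1.51 (SE 0.39, adjusted p = 0.068). It was called without BS2 replicate 1 (1.76, adjusted p = 0.0302) and without SB4 replicate 3 (1.95, adjusted p = 0.0284), and so was Bmp6 without the latter (1.47, adjusted p = 0.0216). For Bmp5 these were 19 to 32 counts a library in BS2 and 7 to 17 in SB4. For Tgfb1 the differences within the pairs were 0.07 (SE 0.12) and -0.08 (SE 0.18), and for Tgfbr2 0.01 (SE 0.21) and -0.13 (SE 0.11).

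Lists of other genes of the pathway were read beside the 51, and beside all genes tested, of which 28.6% were called lower and 27.8% higher from SB2 to SB4 and 29% higher and 26.5% lower from BS2 to BS6. Of 26 tested extracellular regulators, 17 were called lower and 6 higher in SB4 than in SB2, and of 27 tested from BS2 to BS6, 18 were called higher and 3 lower. The share called higher in SB4 was near that of all genes. The collagen-binding proteoglycans Dcn and Bgn, which can hold TGF-beta, were at 1920 ± 331 CPM and 2700 ± 253 CPM (SD, n = 3) in SB2 and at 3.73 ± 1.83 CPM and 6.70 ± 1.25 CPM in SB4. Thbs1, an activator of latent TGF-beta, changed by -7.70 (SE 0.21). Itgb8, an integrin subunit that activates latent TGF-beta and is known from astrocytes, was higher in SB4 by 3.21 (SE 0.09), and Fstl4 by 5.45 (SE 0.20). Fstl5, a follistatin-like gene of neurons, had 282 to 445 counts a library in SB4 and at most 2 in SB2, and was at least 122-fold higher in SB4 against the limit of 3 counts a library.

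Among 9 tested co-receptors and membrane regulators, 5 were called lower and 1 higher in SB4 than in SB2, and from BS2 to BS6 4 were called higher and 1 lower, where 56.4% and 55.5% of all genes were called in either direction. Bambi, a receptor decoy, changed from SB2 to SB4 by -4.65 (SE 0.15), Eng, the endothelial co-receptor endoglin, by -3.53 (SE 0.07), and Tmem100, an endothelial membrane protein, by -1.87 (SE 0.16), while Rgmb, a BMP co-receptor of neurons, was higher by 1.70 (SE 0.07). Of 13 intracellular regulators, 4 were called higher and 2 lower in SB4, and 2 higher and 4 lower in BS6, where 56.4% and 55.5% of all genes were called in either direction. The ubiquitin ligase Nedd4l was higher in SB4 by 3.88 (SE 0.09), the Smad anchor Zfyve9 by 1.77 (SE 0.08) and the phosphatase Ppm1a by 1.67 (SE 0.06), and the corepressor Tgif1 was lower, at -4.80 (SE 0.17), as was the ubiquitin ligase Smurf2, at -1.08 (SE 0.08).

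Of 18 tested transcripts that TGF-beta or BMP signals are known to induce, 12 were called lower and 1 higher in SB4 than in SB2, and of 19 from BS2 to BS6 14 were called higher and 1 lower. The shares over all genes were 28.6% lower and 27.8% higher in the first comparison and 29% higher and 26.5% lower in the second. The matrix gene Postn changed by -10.73 (SE 0.19), the osteoblast factor Sp7 by -9.39 (SE 0.15) and the repressor Snai1 by -8.13 (SE 0.20) from SB2 to SB4, and Id4, a gene of neural precursors, by 2.26 (SE 0.15). Postn and Sp7 are also in the fibroblast and osteoblast marker lists, whose summed levels moved with the groups; their part in these counts was not tested. Between BS6 and SB2, 3 extracellular regulators were called higher, the BMP antagonist Chrdl2 at 2.87 (SE 0.43), Fstl4 at 1.82 (SE 0.36) and Thbs1 at 1.52 (SE 0.32), and 1 induced transcript, the actin gene Acta2, was called lower at -1.09 (SE 0.15), where 1.11% of all genes were called higher and 0.741% lower. All 4 calls were lost with the replicate block and without any of the 3 SB2 libraries, where 0 genes of the table were called. Between BS2 and SB4 no gene of these 4 lists was called by edgeR's quasi-likelihood test.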

How the data were processed

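The data are whole-number read counts per gene for 22317 genes in 12 libraries, with 0 columns of other samples. Per the labels and the study's methods, the authors trimmed reads with fastp and aligned them to mm10 with HISAT2 2.1.0 before the deposited counts were made; the counting program, its annotation and its use of strand are not given in the sources used here, nor whether the counts precede a batch correction. Groups follow the labels, 3 libraries each. Where libraries do not come from separate animals, p-values measure only the spread between these samples.

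Quasi-likelihood models of edgeR 4.0.16 (run in R 4.3.3, robust, with TMM factors) were fitted to each pair of groups, and over 12 libraries for the difference of changes, after filterByExpr had removed genes below its minimum, set to a count of 10. The SE of a log2 fold change is its size over the root of the F statistic. Levels are CPM with TMM factors, per kilobase over GENCODE M21 exons on mm10. For a fold limit, a group with 3 counts or fewer in every library was set to 3 counts a library. It was set against the mean CPM of the other group, without that group's spread. Scripts were tested on simulated data. Alternatives were DESeq2 1.42.0, other scalings, other filters, no fold threshold, a fit of all 12 libraries, a replicate block and leaving out each library.

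Named by rule with values were the 4 members of each role with the highest mean level, taken in the group where each was highest. Members called between groups with alike transcripts, and members called in neither day comparison or with 1 sign in both, were named too. Of each pathway list, up to 3 called genes a direction with at least 20 CPM were named. Other members named were chosen after their values were seen. The members and lists were chosen with earlier results of these data known. The values of 1 member, included in the counts, are not reported here.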

Additional observations from a re-analysis of the deposited data

Results flagged for a closer look

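The change from SB2 to SB4 differed from the change from BS2 to BS6 for 44 of the 48 genes tested (edgeR's interaction term over 12 libraries, adjusted), 37 of them with the lower value for SB2 to SB4, where 73.6% of all genes tested differed. By neuron and osteoblast markers, the libraries of SB2 and BS6 held bone transcripts and those of SB4 and BS2 brain transcripts. Day, label and tissue content thus cannot be told apart here.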

How the results depend on the processing

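Of the log2 fold changes of the members that were recomputed under the alternatives, none changed sign; other values were not all recomputed. The median of all genes from SB2 to SB4, -0.015, was 0.006 with RLE factors. Under the alternatives, the 29 lower calls from SB2 to SB4, of 48 tested, were 23 to 37. The 28 higher calls from BS2 to BS6, of 47 tested, were 25 to 35. The 23 and the 25 arose where a gene was kept only if no library had under 10 counts of it. There, fewer members were tested, 40 from SB2 to SB4 and 43 from BS2 to BS6. Of all genes tested there, 3396 of 13718 were called lower in SB4 and 3461 of 13661 higher in BS6. With no fold threshold, which gave the 37 and the 35, 9 genes, not 5, were higher in SB4. In that setting 7138 of all 17293 genes tested were higher in SB4 and 7262 lower, and 6614 of 17311 were higher in BS6. Calls between groups with alike transcripts moved. In BS6 against SB2, 2 genes were higher, but 1 in the fit of all 12 libraries, 1 with total counts only, 0 with the replicate block and 0 to 1 with a library left out; 0 were lower, but 1 by DESeq2, 1 in the fit of all 12 libraries and 0 to 1 with a library left out. In BS2 against SB4, 0 were higher, but 1 with no filter, 1 with the replicate block and 0 to 2 with a library left out. The cause was not tested.

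Over all genes, BS6 against SB2 gave 182 higher and 121 lower calls, against 752 and 320 by DESeq2, 947 and 326 in the fit of all 12 libraries, 373 and 559 with no fold threshold, 125 and 163 with total counts only, 0 and 0 with the replicate block, 397 and 270 without BS6 replicate 2, 17 and 17 without BS6 replicate 1, 15 and 17 without BS6 replicate 3, and 0 and 0 without any of the SB2 libraries. BS2 against SB4 gave 10 and 14, against 17 and 29 by DESeq2, 5 and 3 in the fit of all 12 libraries, 24 and 26 with no filter, 60 and 93 with no fold threshold and 39 and 22 with the replicate block. It gave 47 and 12 without BS2 replicate 1, 16 and 25 without SB4 replicate 2 and 17 and 68 without SB4 replicate 3. Upper-quartile scaling moved the median of all genes by -0.13 from SB2 to SB4.

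Same-numbered libraries did not deviate together (correlations of -0.1 to 0.09), so the numbers were not taken as pairs; the block ended the calls of Bmp4 and Nog in BS6 against SB2 and added Bmp5 in BS2 against SB4. Bmp8b, Gdf5 and Gdf7, at 11 counts or fewer in every library, did not pass the filter on low counts.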
